A study of Rattus norvegicus with 8 samples.

Results

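Protein phosphatases and their regulatory subunits were taken as the genes whose symbols begin with Ppp and a digit, Ptpn, Ptpr or Ptp4a, leaving out Ppp1r15a and Ptprn. Only probe sets that the array's annotation assigns to a single gene were used, and each gene was represented by its probe set with the highest mean signal over all arrays. This gave 58 genes, read by 92 probe sets, of 4736 genes with a single symbol on an array of 8799 probe sets. All 58 were found by gene identifier in the rat RefSeq list (assembly GRCr8) under the same symbol.

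The cells were the rat line Htt14A2.5, derived from PC12, a rat adrenal medullary tumour line. Per the labels it carries, stably and under an inducible control, a truncated mutant form of exon 1 from human Huntingtin. The +PA samples had been exposed to ponasterone (PA), a steroid inducer, for 48 h (4 samples), and the -PA samples were the uninduced state of the same line (4 samples). Both groups therefore carry the construct. No group that received ponasterone without the construct was analysed here, so an effect of the agent and an effect of the induced protein cannot be told apart. The free-text description of every sample mentions induction, and the titles set the groups. Whether replicates 1 to 4 were separate cultures is not stated, so p-values measure only the spread between these samples. The human transgene itself was not measured here.

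Protein phosphatases remove phosphate from serine and threonine or from tyrosine residues and so oppose protein kinases. The serine/threonine enzymes PP1 and PP2A each use a few catalytic subunits that are directed to their substrates by many regulatory subunits, while calcineurin is switched on by calcium and calmodulin. The protein tyrosine phosphatases (PTPs) include transmembrane receptor forms and non-receptor forms, some of which set the strength of growth factor receptor signalling in neuronal cells such as PC12.

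Of the phosphatase transcripts, 4 differed between induced and uninduced cells by the test used. Ptpn1, a tyrosine phosphatase of the endoplasmic reticulum surface that acts on the insulin receptor, rose 1.39-fold, and Ptp4a2, a prenylated phosphatase of the PRL family, rose 1.42-fold. Ppp1ca, a catalytic subunit of PP1, fell by 0.45 on the log2 scale, and Ppp1r16b, a membrane-associated PP1 targeting subunit also called TIMAP, fell from signals of 125 to 161 on the 4 uninduced arrays to 27.6 to 78.8 on the 4 induced arrays. All 4 induced signals were below the 95th percentile of the control probe sets, so the size of that fall depends on the background. Of the 58 genes 42 passed the filter on low signal (a mean of at least 36.0), and of these 2 rose, 2 fell and 38 were not called by limma at an adjusted p under 0.05. That is 9.52% of the genes tested, beside 7.06% of all 6129 probe sets tested and 7.20% of 3623 genes with 1 probe set each. Among all probe sets 4.10% were higher and 2.97% lower. The share of phosphatase genes called was thus near that of the whole array. With the arrays centred on their medians 166 probe sets were higher and 63 lower, in place of 251 and 182, and among the phosphatase genes 0 were higher and 1 lower. The median log2 difference (induced minus uninduced) was 0.02 over the 42 genes and -0.05 over all probe sets tested, and 57.1% and 43.4% of these had a positive difference.

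**Figure D1:**
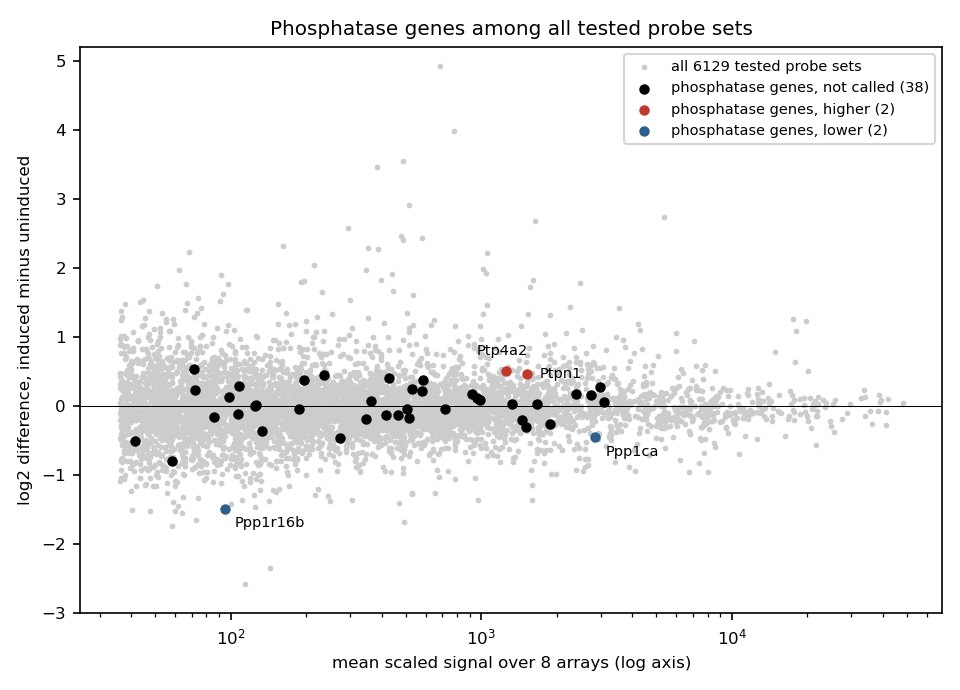
Each grey point is 1 of the 6129 tested probe sets, with its mean scaled signal over 8 arrays (log axis) against its log2 difference, induced minus uninduced; large points are the 42 tested phosphatase genes. The 2 genes that rose (red) and the 2 that fell (blue) lie among 38 that were not called (black), at a median of 0.02.

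The start regions of the 4 genes that passed are shown because they let the pair that rose be set beside the pair that fell. Each is the RefSeq window (GRCr8) from 250 bases before to 50 after the gene's start, 5′ to 3′. Capitals mark GC boxes (GGGCGG on either strand), the letters bound by Sp1-type factors. The windows are chr3:177057483-177057782 (+ strand) for Ptpn1, chr5:147465364-147465663 (+ strand) for Ptp4a2, chr1:210914326-210914625 (+ strand) for Ppp1ca and chr3:167743741-167744040 (+ strand) for Ppp1r16b.
Ptpn1: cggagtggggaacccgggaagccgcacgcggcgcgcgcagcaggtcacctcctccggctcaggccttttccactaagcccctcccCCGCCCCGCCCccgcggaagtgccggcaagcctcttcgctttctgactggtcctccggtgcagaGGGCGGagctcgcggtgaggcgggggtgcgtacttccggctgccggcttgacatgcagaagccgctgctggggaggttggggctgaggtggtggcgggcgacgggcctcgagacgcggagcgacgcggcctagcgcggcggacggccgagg
Ptp4a2: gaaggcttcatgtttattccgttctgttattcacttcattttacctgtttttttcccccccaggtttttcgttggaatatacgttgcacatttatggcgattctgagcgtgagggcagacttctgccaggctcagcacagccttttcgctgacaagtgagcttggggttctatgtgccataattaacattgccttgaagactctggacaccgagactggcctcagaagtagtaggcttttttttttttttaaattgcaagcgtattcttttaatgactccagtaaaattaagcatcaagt
Ppp1ca: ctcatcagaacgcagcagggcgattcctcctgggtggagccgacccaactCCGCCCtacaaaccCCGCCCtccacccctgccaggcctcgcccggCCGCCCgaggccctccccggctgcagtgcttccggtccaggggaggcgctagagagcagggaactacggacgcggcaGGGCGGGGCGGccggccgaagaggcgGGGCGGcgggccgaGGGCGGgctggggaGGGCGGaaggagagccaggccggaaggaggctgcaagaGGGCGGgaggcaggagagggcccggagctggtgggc
Ppp1r16b: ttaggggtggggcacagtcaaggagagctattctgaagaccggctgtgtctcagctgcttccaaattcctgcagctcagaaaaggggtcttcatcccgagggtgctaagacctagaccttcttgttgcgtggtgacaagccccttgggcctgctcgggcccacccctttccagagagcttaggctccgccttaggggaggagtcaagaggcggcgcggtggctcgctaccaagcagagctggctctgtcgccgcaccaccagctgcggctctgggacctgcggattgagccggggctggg

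The window of Ppp1ca held 9 GC boxes, some overlapping, and that of Ptpn1 held 3, while those of Ptp4a2 and Ppp1r16b held 0. A gene that rose and a gene that fell thus each had GC boxes, and a gene of each direction had none. Bases G and C made up 73.3% of the Ptpn1 window, 41.7% of that of Ptp4a2, 75.0% of that of Ppp1ca and 62.0% of that of Ppp1r16b. Windows were found for 51 of the 58 genes (54 windows in all), of which 68.5% held a GC box, against 33.1% of all 33469 windows. Their median GC content was 67.0% against 51.7%, and a GC-rich motif is met more often in GC-rich sequence. None of the 4 windows held TGANTCA, the AP-1 letters, or TGACGTCA, the cAMP response element, on either strand. Of all windows 7.33% held the first and 1.83% the second, and of the 54 phosphatase windows 1 and 2 did. These matches describe letters only.

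The arrays had been scaled to a common level, and their median signals lay between 97.9 and 135.5. Low signal was judged by 38 control probe sets (yeast, bacterial, mouse and reverse-strand), whose 95th percentiles on the 8 arrays lay between 101.6 and 183.5. Whether the mouse probe sets read any rat transcript was not tested. Of the 58 phosphatase genes 29 were above that level on all 8 arrays, 9 on some and 20 on none. Induced replicate 4 stood apart on the first principal component (34.5, the others between -19.6 and 12.8). Of the chromaffin markers measured, Chgb, Phox2a and Scg2 were above the controls on all arrays and Slc18a1 on 7, while Th was above on 1 and Ddc, Dbh and Slc18a2 on none. Of these 8 only Phox2a was called (log2 difference -0.70, limma adjusted p = 4.8e-04). Of 7 fibroblast markers Col1a1 and Col3a1 were above the controls on all arrays, of 6 leukocyte markers Cd4 was, and of 3 Schwann and glial markers none was. No marker of these 3 lists was called, and their summed signals overlapped between the groups (fibroblast 1596 to 2035 induced and 1429 to 1814 uninduced, leukocyte 233 to 581 and 250 to 387, glial 92.8 to 154 and 104 to 194). In bulk RNA fewer cells of a type and less RNA per cell cannot be told apart.

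Of the PP1 catalytic subunits, which share most of their sequence, Ppp1ca was lower after induction, and Ppp1cc and Ppp1cb were not called. Ppp1ca had signals of 3042, 2467, 2241 and 1957 in induced replicates 1 to 4 and of 3355, 3347, 3286 and 3092 in uninduced replicates 1 to 4. The groups did not overlap, but the highest induced and the lowest uninduced array were close, and the induced arrays spread more widely. The means were 2427 ± 460 and 3270 ± 123 (SD, n = 4 each), a log2 difference of -0.45 ± 0.12 (SE; limma adjusted p = 0.0477), and the exact two-sided permutation test over arrays gave p = 0.0286, the smallest that 4 against 4 arrays can give. Among the induced arrays the Ppp1ca signal was lower where the array's median signal was higher (medians of 97.9, 105.0, 119.5 and 135.5 for replicates 1 to 4). The uninduced arrays, with medians of 106.6 to 127.7, gave 3092 to 3355, and the part of this in the result was not tested. With the arrays centred on their medians the log2 difference was -0.41 and the adjusted p 0.416.

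The call of Ppp1ca was close to the threshold. It passed in 7 of 18 alternative analyses and in 1 of the 8 that left out 1 array, without induced replicate 1 (log2 difference -0.56, adjusted p = 0.00809). Leaving out induced replicates 2, 3 and 4 in turn gave adjusted p of 0.0864, 0.117 and 0.0987, and leaving out uninduced replicates 1 to 4 gave 0.114, 0.126, 0.114 and 0.0623. The log2 difference was negative in all 18, from -0.56 to -0.35.

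Ppp1cc had 1824, 1783, 1745 and 1478 in induced replicates 1 to 4 and 1999, 1971, 2291 and 1891 in uninduced replicates 1 to 4. All induced arrays lay below all uninduced ones, and the log2 difference of -0.26 ± 0.10 was not called (adjusted p = 0.195; 95% interval -0.48 to -0.03). Ppp1cb had 1513, 1413, 1332 and 1120 against 1393, 1323, 1447 and 1116 in the same order, and the groups overlapped throughout (log2 difference 0.02, interval -0.24 to 0.29). A second Ppp1cb probe set also differed by 0.02. Ratios of these transcripts within each array were compared in 4 pairs of close relatives, 3 of them in PP1. Whether the probe sets of a pair also read each other's transcripts was not tested. The log2 ratio of Ppp1ca to Ppp1cb was 0.84 ± 0.11 in induced and 1.31 ± 0.12 in uninduced cells (SD, n = 4 each; exact permutation p = 0.0286, 0.0571 after Benjamini-Hochberg adjustment over the 4 pairs). That of Ppp1cb to Ppp1cc was -0.35 ± 0.06 and -0.63 ± 0.10 (exact p = 0.0286, adjusted 0.0571), and that of Ppp1ca to Ppp1cc was 0.49 ± 0.17 and 0.68 ± 0.11 (exact p = 0.0857, adjusted 0.114). None of these ratios passed after adjustment, in a design whose smallest exact p is 0.0286. The Ppp1ca to Ppp1cb and Ppp1cb to Ppp1cc ratios were at that smallest p. Their adjusted value of 0.0571 also depended on the p of the other pairs, so for these ratios the lack of a pass decides nothing. The 3 PP1 ratios share values and are not independent of each other.

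**Figure D2:**
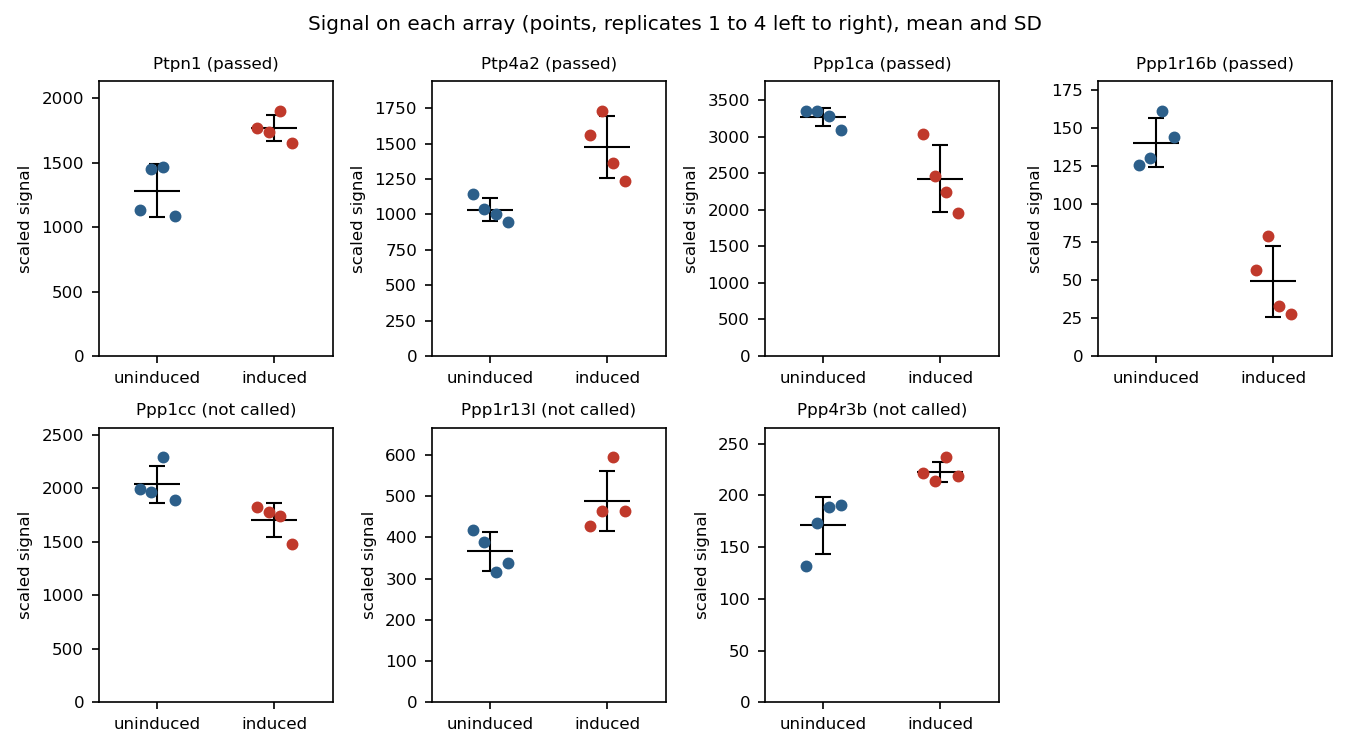
Scaled signal (axes start at 0) on each array, uninduced in blue and induced in red, with mean and SD, for the 7 tested phosphatase genes whose groups did not overlap. In 4 panels (Ptpn1, Ptp4a2, Ppp1r13l, Ppp4r3b) all induced arrays are higher and in 3 (Ppp1ca, Ppp1r16b, Ppp1cc) all are lower; the panel titles say which passed the test.

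PP1 regulatory subunits direct PP1 to substrates or block it. Of 11 such genes 9 were tested, and Ppp1r16b fell while 8 were not called. Ppp1r16b had 56.3, 78.8, 32.9 and 27.6 in induced replicates 1 to 4 and 125, 130, 161 and 144 in uninduced replicates 1 to 4. The groups did not overlap. It was above the 95th percentile of the controls on 3 of the 4 uninduced arrays and 0 of the 4 induced arrays, so the size of its log2 difference, -1.48 ± 0.33 (limma adjusted p = 0.0152), depends on the background and on the constant of 7 added before the log. With 64 added it was -0.87. It passed in 16 of the 17 alternatives in which it was tested, and not without uninduced replicate 3, its highest array (log2 difference -1.42, adjusted p = 0.0594). A filter at the 50th percentile of signal left it out.

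Ppp1r13l, also called iASPP and known as an inhibitor of p53, had 428, 464, 594 and 464 in induced replicates 1 to 4 and 418, 389, 317 and 339 in uninduced replicates 1 to 4. All induced arrays were higher, replicate 1 of the 2 groups being close (428 and 418), and the log2 difference of 0.40 ± 0.15 was not called (adjusted p = 0.155). Ppp1r2, inhibitor-2 of PP1, gave 1347 ± 200 induced against 1553 ± 302 uninduced (SD, n = 4 each) and differed by -0.20 on the log2 scale (95% interval -0.53 to 0.14), with overlapping groups. Ppp1r1a, inhibitor-1, a PP1 inhibitor activated by protein kinase A, had signals of 43.6 ± 32.6 and 73.0 ± 32.5, below the control level on every array, and its interval of -1.89 to 0.29 says little. The nuclear subunit Ppp1r10 (0.17), spinophilin Ppp1r9b (0.12) and the myosin-targeting subunit Ppp1r12a (-0.04) had log2 differences within 0.20 of 0 and were not called. Ppp1r3b and Ppp1r9a did not pass the low-signal filter.

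**Figure D3:**
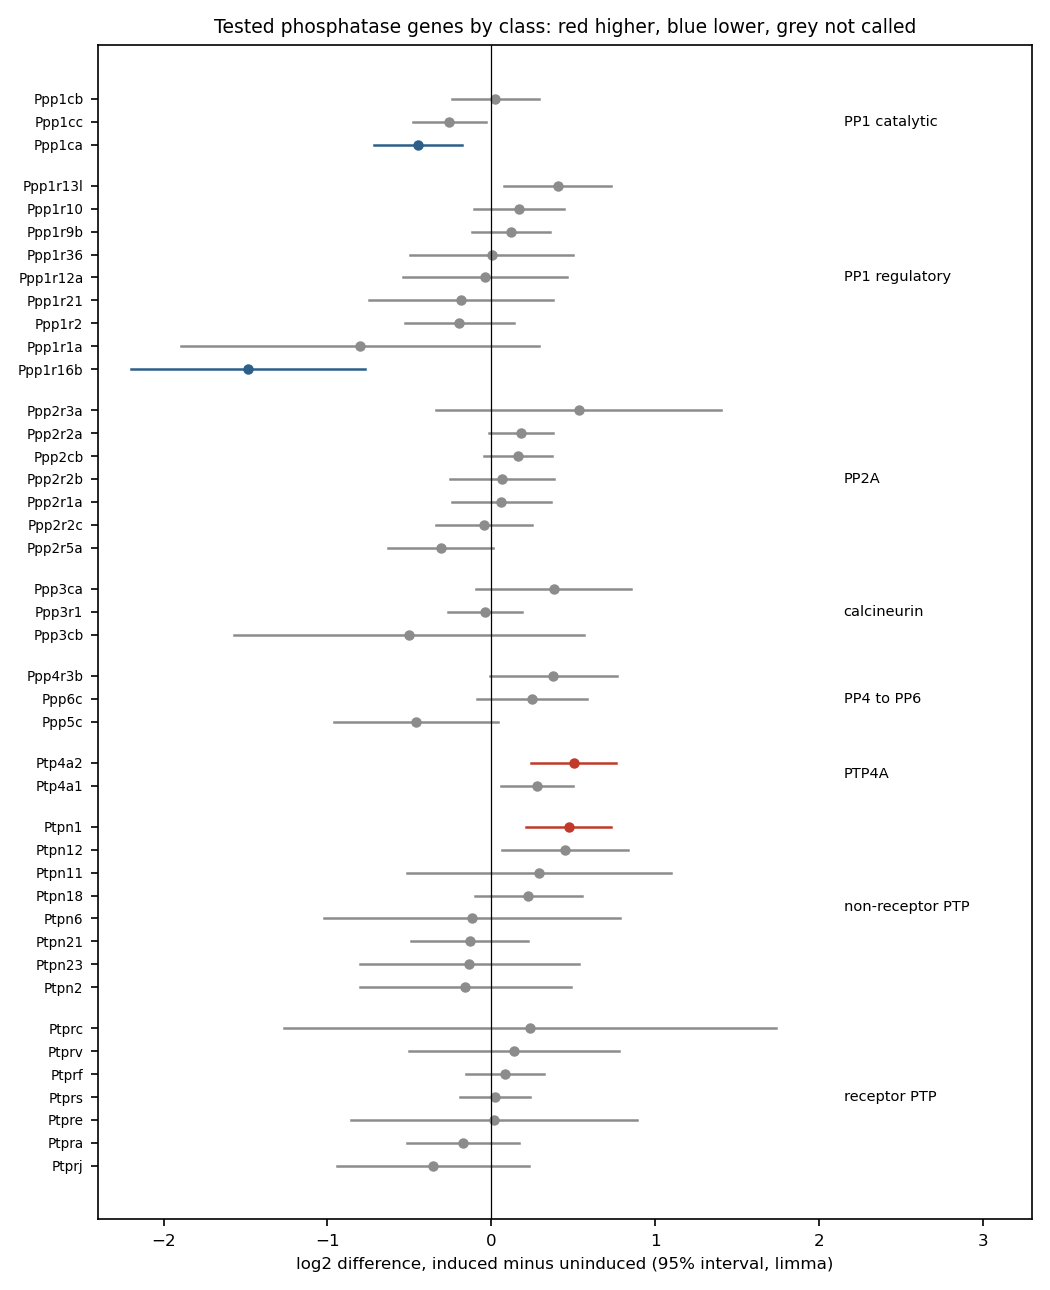
Log2 difference, induced minus uninduced, with its 95% interval from limma for the 42 phosphatase genes tested, grouped by class; red rose, blue fell and grey was not called. The size for Ppp1r16b (-1.48, or -0.87 with 64 added before the log) rests on induced signals below the 95th percentile of the controls; Ptprc, another gene of low signal, has an interval from -1.27 to 1.74.

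PP2A is built from a scaffold, a catalytic and an exchangeable B subunit. All 7 of its genes were tested and 0 were called, at log2 differences from -0.31 to 0.53. At the level of single tests, 8 of the 42 phosphatase genes had an unadjusted limma p under 0.05 (19.0%, against 18.0% of all probe sets), none of them in PP2A. The catalytic subunit Ppp2cb had 2848, 2694, 3094 and 2941 in induced replicates 1 to 4 and 2888, 2460, 2737 and 2283 in uninduced replicates 1 to 4, a log2 difference of 0.16 (95% interval -0.05 to 0.37). The probe sets annotated to Ppp2ca, the other catalytic subunit, also list a second gene and were left out by the rule. The scaffold Ppp2r1a gave 3143 ± 315 and 3051 ± 630 (SD, n = 4 each; difference 0.06, interval -0.24 to 0.36), and its second probe set differed by 0.08. The 3 probe sets of the B subunit Ppp2r2a differed by 0.18, 0.09 and 0.28 and none was called. Ppp2r5a, a B′ subunit, had 1516, 1203, 1350 and 1292 in induced replicates 1 to 4 and 1200, 1940, 1805 and 1787 in uninduced replicates 1 to 4. Uninduced replicate 1 lay at the level of the induced arrays and the others above all of them. The log2 difference was -0.31 ± 0.15 (adjusted p = 0.299), and -0.46 without uninduced replicate 1 (adjusted p = 0.0313); this gene was picked out after its values were seen.

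Calcineurin, the calcium-activated phosphatase of NFAT transcription factors, had 3 of 4 genes tested and 0 called. Its catalytic subunit Ppp3ca had 800, 743, 672 and 435 in induced replicates 1 to 4 and 473, 612, 347 and 597 in uninduced replicates 1 to 4. The 3 highest values were induced, but induced replicate 4 fell inside the uninduced range (log2 difference 0.38, 95% interval -0.10 to 0.86). The regulatory subunit Ppp3r1 was steadier, with 708 ± 18.5 induced and 728 ± 55.0 uninduced (SD, n = 4 each; difference -0.04, interval -0.26 to 0.19). Ppp3cb gave 17.6 to 82.1, below the controls on every array, and Ppp3r2 did not pass the filter.

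Of the PP4 to PP6 group all 3 genes were tested and 0 were called. Ppp4r3b, a regulatory subunit of PP4, had 221, 214, 237 and 219 in induced replicates 1 to 4 and 131, 173, 189 and 191 in uninduced replicates 1 to 4. All induced arrays were higher, and the log2 difference of 0.38 ± 0.18 was not called (adjusted p = 0.294). Ppp5c, a phosphatase that binds Hsp90, had 238, 255, 205 and 195 in induced replicates 1 to 4 and 333, 187, 350 and 412 in uninduced replicates 1 to 4. Uninduced replicate 2 was the lowest of all 8 arrays and the other uninduced arrays were above every induced one. The log2 difference was -0.46 ± 0.23 (adjusted p = 0.327), and -0.69 without that array (adjusted p = 0.0501). Leaving out each other array in turn gave adjusted p of 0.339 to 0.540, and 0 of these 8 omissions passed. The catalytic subunit Ppp6c gave 573 ± 51.6 and 487 ± 91.7 (SD, n = 4 each; difference 0.25, interval -0.09 to 0.58).

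Of 11 non-receptor tyrosine phosphatases 8 were tested; Ptpn1 rose and 7 were not called. Ptpn1 had 1768, 1741, 1902 and 1656 in induced replicates 1 to 4 and 1130, 1451, 1468 and 1083 in uninduced replicates 1 to 4. Every induced array was above every uninduced one, and uninduced replicates 1 and 4 were lower than 2 and 3. The log2 difference was 0.47 ± 0.12 (limma adjusted p = 0.0317; exact permutation p = 0.0286). The other 4 Ptpn1 probe sets differed by 0.39, 0.36, 0.23 and 0.42, all positive and none called. These 5 probe sets read the same RNA and are not replicates. Averaging them gave 0.38 (adjusted p = 0.0983).

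The Ptpn1 call passed in 9 of 18 alternatives, and in 3 of the 8 that left out 1 array. It was lost without induced replicates 1, 2 and 3 (adjusted p = 0.0743, 0.0698 and 0.0870) and without uninduced replicates 1 and 4 (0.0947 and 0.0708). The log2 difference stayed between 0.38 and 0.54 over the 18. With median-centred arrays it was 0.51 (adjusted p = 0.209).

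Ptpn12, which acts on focal adhesion proteins, had 211, 295, 313 and 273 in induced replicates 1 to 4 and 223, 201, 172 and 190 in uninduced replicates 1 to 4. Only induced replicate 1 fell within the uninduced range, and the log2 difference of 0.45 ± 0.18 was not called (adjusted p = 0.189; 95% interval 0.07 to 0.84). Ptpn11, the phosphatase SHP2 that relays growth factor receptor signals to Ras, was read at low signal: its 4 tested probe sets differed by -0.40 to 0.29 and disagreed in sign. Ptpn6, the related SHP1 known from blood cells, had 167, 133, 55.2 and 60.9 in induced replicates 1 to 4 and 103, 170, 115 and 52.9 in uninduced replicates 1 to 4. Its spread was within the groups rather than between them (log2 difference -0.12, interval -1.02 to 0.79). Ptpn2, Ptpn18, Ptpn21 and Ptpn23 differed by -0.16, 0.23, -0.13 and -0.13, and Ptpn3, Ptpn5 and Ptpn7 did not pass the filter.

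**Figure D4:**
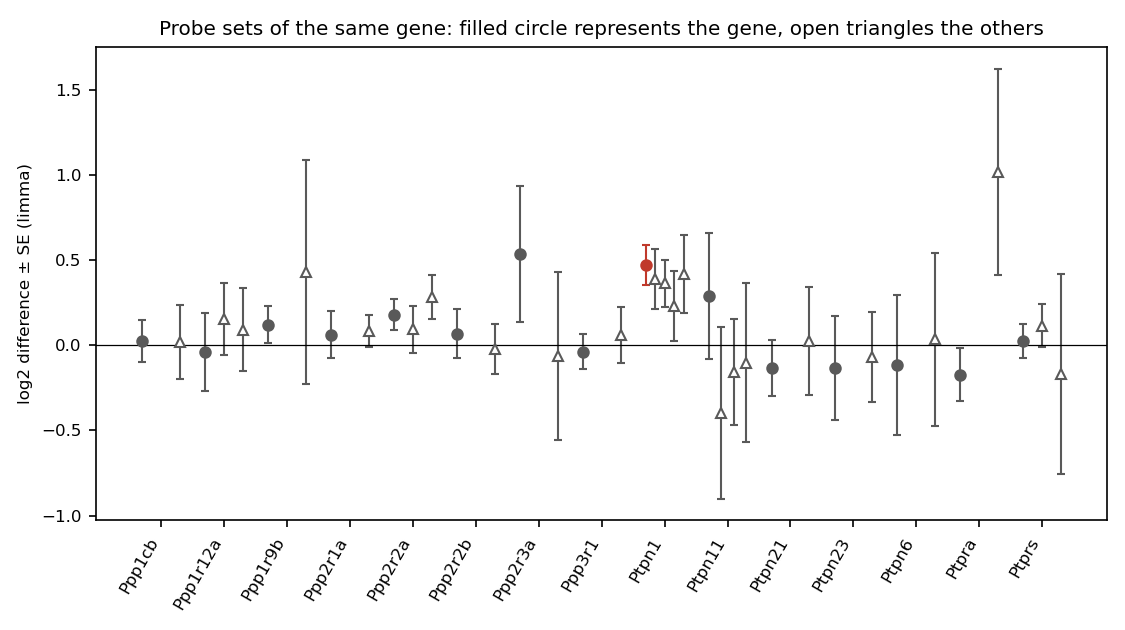
Log2 difference ± SE (limma) for every tested probe set of the 15 phosphatase genes with more than 1; filled circles are the probe sets that represent the genes and red marks the 1 that was called. The 5 Ptpn1 probe sets all lie above 0, and in 6 of the 15 genes all probe sets have the same sign.

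The receptor tyrosine phosphatases were the class with the most genes of low signal: of 17 genes 7 were tested and 0 were called, at log2 differences from -0.36 to 0.24. Ptprs, a receptor for proteoglycans in axons, had 1554, 1837, 1750 and 1619 in induced replicates 1 to 4 and 1742, 1472, 1755 and 1679 in uninduced replicates 1 to 4 (difference 0.02, 95% interval -0.19 to 0.24). A second Ptprs probe set differed by 0.11. Another gave 206, 143, 758 and 1062 in induced and 517, 694, 579 and 187 in uninduced replicates 1 to 4, a far wider spread among arrays of 1 group than that of the first. Ptprf, a receptor phosphatase of the same subfamily known as LAR, differed by 0.09 (interval -0.15 to 0.32), and Ptpra, which activates Src family kinases, by -0.17 (interval -0.51 to 0.17). A second Ptpra probe set, at low signals of 7.5 to 77.7, differed in the other direction by 1.02 (interval -0.30 to 2.34) and was not called. Ptprc, the leukocyte surface protein CD45, was above the controls on 2 of 8 arrays.

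The other 10 receptor phosphatases, with 6 other genes named above, lay below the filter, with mean signals from 1.56 to 34.8, and none was above the controls on any array. The lowest mean among the genes tested was 41.7. Without the filter none of these 16 was called. Among them only Ptpru had groups that did not overlap, with 26.3, 29.4, 21.8 and 20.5 in induced replicates 1 to 4 and 47.3, 52.8, 39.0 and 34.4 in uninduced replicates 1 to 4 (log2 difference -0.67 ± 0.30, adjusted p = 0.346 without the filter).

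The PTP4A or PRL phosphatases are small prenylated enzymes linked to growth. Both genes were tested; Ptp4a2 rose and Ptp4a1 was not called. Ptp4a2 had 1563, 1731, 1366 and 1235 in induced replicates 1 to 4 and 1141, 1036, 1006 and 946 in uninduced replicates 1 to 4. The groups did not overlap, and induced replicate 4 was nearest to the uninduced arrays. The log2 difference was 0.50 ± 0.12 (limma adjusted p = 0.0246; exact permutation p = 0.0286). Ptp4a1 had 3519, 2891, 3132 and 3463 against 2656, 2461, 2521 and 3082 in the same order, with only uninduced replicate 4 inside the induced range, and differed by 0.28 ± 0.10 (adjusted p = 0.150; 95% interval 0.06 to 0.50). The log2 ratio of Ptp4a2 to Ptp4a1 was -1.15 ± 0.31 induced and -1.37 ± 0.22 uninduced (SD, n = 4 each; exact permutation p = 0.314), so a difference between these 2 genes in their response was not shown.

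Ptp4a2 passed in 10 of 18 alternatives and in 3 of the 8 without 1 array. It was lost without induced replicates 1 and 2 (adjusted p = 0.0731 and 0.0767) and without uninduced replicates 2, 3 and 4 (0.0641, 0.0709 and 0.0591). Without induced replicate 4 the adjusted p was 0.0110. The log2 difference stayed between 0.42 and 0.58, and it was 0.54 with median-centred arrays (adjusted p = 0.193).

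**Figure D5:**
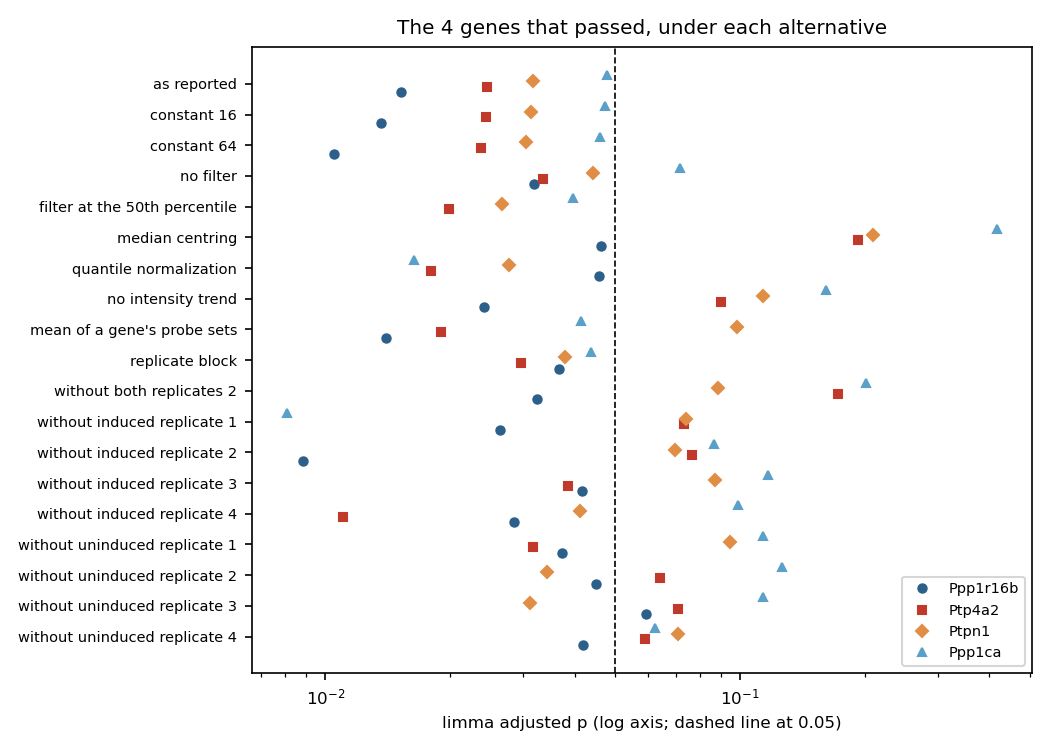
Limma adjusted p (log axis, dashed line at 0.05) of the 4 phosphatase genes that passed, as reported and under each of 18 alternatives. Ppp1r16b lies left of the line in 16 of 17, Ptp4a2 in 10, Ptpn1 in 9 and Ppp1ca in 7 of 18.

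Over the 42 tested genes, 7 had groups that did not overlap (16.7%, against 13.6% of all probe sets tested), 4 with all induced arrays higher and 3 with all lower. This share was close to that of the array as a whole. Of 25 serine/threonine genes 0 rose and 2 fell, and of 17 tyrosine phosphatase genes 2 rose and 0 fell. This split covers only the genes kept by the rule. Ppp1r15a, a PP1 regulatory subunit that the rule left out, rose by 1.09 and 1.01 on the log2 scale (limma adjusted p = 0.00368 and 4.6e-04). Among all probe sets tested 4.10% rose and 2.97% fell. With 4 calls in all this split was not tested, and the calls of Ptp4a2, Ptpn1 and Ppp1ca passed in only 10, 9 and 7 of 18 alternatives.

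Phosphatases and phosphatase regulators with other names were read from a list of 82 genes, of which 27 had a probe set with a single symbol and 22 passed the filter. Of these 2 rose, 0 fell and 20 were not called. Over the whole array 7.06% of the probe sets tested and 7.20% of genes with 1 probe set each were called. With 22 genes tested, 2 calls are near that share. Fkbp1a, the immunophilin FKBP12 whose complex with the drug FK506 blocks calcineurin, had 6838, 6549, 5695 and 6147 in induced replicates 1 to 4 and 3876, 4035, 4115 and 3225 in uninduced replicates 1 to 4. The groups were far apart, at 6307 ± 497 and 3813 ± 404 (SD, n = 4 each), a log2 difference of 0.73 ± 0.10 or 1.66-fold (limma adjusted p = 7.4e-04). It passed in all 18 alternatives, and the other 3 Fkbp1a probe sets rose by 0.60, 0.76 and 0.84. Ppm1b, a magnesium-dependent phosphatase of the PP2C family, had 782, 631, 733 and 594 against 371, 496, 518 and 429 in the same order and rose by 0.59 ± 0.14 (adjusted p = 0.0267). Its other tested probe sets differed by -0.31, 0.47 and -0.10 and were not called. Ppm1b passed in 9 of 18 alternatives. The average of all 4 of its probe sets differed by 0.16 (adjusted p = 0.758). The call was also lost with median centring (adjusted p = 0.147), without an intensity trend (0.0708), with the replicate number as a block (0.0596), without replicate 2 of both groups (0.0884), without induced replicates 1 and 3 (0.0827 and 0.0741) and without uninduced replicates 1 and 4 (0.0750 and 0.0596). Of the list's other members, Ppm1a (log2 difference 0.43, adjusted p = 0.245), Cabin1, a calcineurin inhibitor (-0.28, adjusted p = 0.261), and Ctdsp1, a phosphatase of RNA polymerase II (-0.43, adjusted p = 0.273), had the lowest p and were not called. A second Ctdsp1 probe set, of lower signal, fell by 0.55 (adjusted p = 0.0110), and Ctdsp1 was called lower when its probe sets were averaged (-0.49, adjusted p = 0.0476). Cdc25b, a phosphatase that activates cyclin-dependent kinases, differed by -0.27 (adjusted p = 0.327) and was called lower without uninduced replicate 4 (-0.40, adjusted p = 0.0368). Ctdsp1's second probe set and Cdc25b were picked out after their values were seen.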

How the data were processed

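RNA of 8 samples was measured on 1 Affymetrix-type array each. The authors deposited intensities on a linear scale, a single scaled signal for each probe set of an array. How the authors computed them is not stated in the labels. The 2% trimmed mean lay between 500.78 and 500.85 on every array. The values hold no detection calls, and the number of arrays (4 per group) limits the precision. In the annotation 7018 probe sets have 1 gene symbol, 308 have several and 1473 lack one.

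A constant of 7 (the 10th percentile, rounded) was added before taking log2. The 59 control probe sets and 2611 others with a mean under the 30th percentile (36.0) were left out. Groups from the titles were compared with limma 3.58.1 in R 4.3.3 (eBayes with an intensity trend, 6 residual and 5.77 prior degrees of freedom) over 6129 probe sets, with Benjamini-Hochberg adjustment. Errors of log2 differences are standard errors, and folds come from those differences. The script was tested on simulated data.

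Named genes were, by rule, those that passed, those whose groups did not overlap, the serine/threonine catalytic subunits, the gene of highest signal in each class, and of the related list those that passed and the 3 with the lowest p; further genes were picked with their values known. The members and lists were chosen with earlier results of these data known. Alternatives changed the constant, filter, normalization, variance prior, probe sets per gene, pairing and arrays. Same-numbered samples did not pair (correlations of deviations -0.14, 0.06, -0.09 and 0.19 for replicates 1 to 4).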

Additional observations from a re-analysis of the deposited data

How the results depend on the processing

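The log2 differences of Ppp1ca, Ppp1r16b, Ptp4a2, Ptpn1 and Fkbp1a kept their sign in every alternative in which they were tested. The 2 higher and 2 lower phosphatase genes became 0 and 1 with median centring, without an intensity trend and without replicate 2 of both groups (their source label has another wording). They became 1 higher with all probe sets of a gene averaged and 1 lower with no filter or a filter at the 50th percentile. Without 1 array the counts ranged from 0 to 2 in each direction; the cause was not tested. Of all probe sets 229 were called with median centring (72.5% of them higher, against 58.0%), 279 without the trend and 221 without replicate 2 of both groups, against 433. The related list had 1 call in place of 2 in these 3 alternatives and with the replicate block, and 1 to 2 without 1 array; Fkbp1a was called in all 18, Ppm1b in 9, Ctdsp1 in 1 and Cdc25b in 1. The replicate block kept the 2 higher and 2 lower phosphatase genes. Whether a shared replicate number marks a shared culture or batch is not stated. Differences of genes near 0 that were not called changed sign. Ppp3r1 went to 0.012 and Ptprs to -0.010 with probe sets averaged. Without replicate 2 of both groups Ppp2r1a went to -0.016 and Ptprs to -0.074. Without 1 array the lowest and highest values were -0.053 and 0.11 for Ppp1cb, -0.032 and 0.17 for Ppp2r1a, and -0.033 and 0.063 for Ptprs. Signals near the controls limit the 20 genes never above them.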
